A study of Mus musculus with 20 samples.

Results

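Sterol and fatty acid synthesis genes were followed in mouse erythroid progenitors with and without erythropoietin (Epo), the hormone on which red cell precursors depend. The genes are a list of 32 genes regulated by the sterol regulatory element binding proteins (SREBPs), chosen by name. Of the 18193 genes tested on the arrays, 31 were members of the list, 20 in a sterol arm and 11 in a fatty acid arm, and Acat2 was not analysed here. Each gene was represented by the probe set that named it alone and had the highest mean over the 20 arrays. All 31 lay above the median gene of the arrays (mean log2 level 4.91).

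The cells were CFU-E cells (colony-forming erythroid progenitors) from fetal livers of BALB/c mouse embryos at E13.5, obtained by removing cells with surface markers of other blood lineages and Ter119. Epo was given at 0.5 U/ml, and its 12 arrays were taken at each hour from 0 to 8 h and at 14, 19 and 24 h. The 8 arrays without Epo were taken at each hour from 0 to 7 h. The labels differ on the time before stimulation: the series text describes a starvation of 1 h after sorting, and the sample text describes 12 to 14 h of culture with Epo at the same dose. The study concerned feedback in the signalling pathway from the Epo receptor through JAK2 to STAT5. Each treatment and time had 1 array, and no label says that the hours came from separate cultures or how many embryos were pooled. The p-values therefore rest on how much arrays of different hours scatter, and that scatter may be technical. Where no slope over the hours was fitted, a steady change over the hours also counts as scatter. Any difference between the series other than Epo cannot be told apart from Epo in a comparison of levels.

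Cells make cholesterol and fatty acids from the same building block, acetyl-CoA. SREBP2, encoded by Srebf2, mainly drives genes of sterol synthesis, and SREBP1, encoded by Srebf1, mainly drives genes of fatty acid synthesis. Both proteins are held in the endoplasmic reticulum by INSIG proteins when sterols are plentiful, and are cut and sent to the nucleus when sterols run low. They bind sterol regulatory elements in promoters, often beside sites for the factor NF-Y, whose core motif is CCAAT. A dividing cell needs both products for new membrane.

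The promoters of Hmgcs1, Msmo1, Mvk and Fasn are shown as examples from both arms. They are rich in CCAAT: of the members with a promoter sequence, Mvk had the most matches (5), and Fasn the most of its arm (3). Each line gives the 250 bases before the annotated start from RefSeq (GRCm38.p6), 5′ to 3′ on the gene's own strand. Capitals mark CCAAT or its reverse complement ATTGG, and in Hmgcs1 also a match to the sterol regulatory element core TCACNCCAC. Hmgcs1 lies at chr13:119690101-119690350 on the plus strand, Msmo1 at chr8:64733579-64733828 on the minus strand, Mvk at chr5:114444019-114444268 on the plus strand and Fasn at chr11:120824548-120824797 on the minus strand.
Hmgcs1: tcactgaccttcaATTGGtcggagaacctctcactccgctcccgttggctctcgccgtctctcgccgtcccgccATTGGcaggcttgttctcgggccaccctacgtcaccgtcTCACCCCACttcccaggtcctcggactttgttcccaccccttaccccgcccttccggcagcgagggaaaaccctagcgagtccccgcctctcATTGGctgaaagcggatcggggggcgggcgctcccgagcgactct
Msmo1: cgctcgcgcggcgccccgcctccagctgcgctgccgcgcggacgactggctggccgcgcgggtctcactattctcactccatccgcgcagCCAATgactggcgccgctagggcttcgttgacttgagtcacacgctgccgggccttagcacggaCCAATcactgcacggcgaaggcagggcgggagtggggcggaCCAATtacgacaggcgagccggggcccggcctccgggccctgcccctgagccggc
Mvk: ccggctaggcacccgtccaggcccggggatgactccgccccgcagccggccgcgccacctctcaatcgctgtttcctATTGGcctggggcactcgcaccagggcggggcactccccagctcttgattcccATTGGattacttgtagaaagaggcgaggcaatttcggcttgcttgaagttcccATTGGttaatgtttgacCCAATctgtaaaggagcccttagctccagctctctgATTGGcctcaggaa
Fasn: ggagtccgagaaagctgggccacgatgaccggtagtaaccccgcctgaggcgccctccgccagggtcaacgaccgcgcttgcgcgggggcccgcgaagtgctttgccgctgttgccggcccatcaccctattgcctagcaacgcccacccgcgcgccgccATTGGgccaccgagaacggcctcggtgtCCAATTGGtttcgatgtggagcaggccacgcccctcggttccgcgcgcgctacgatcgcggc

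Promoter windows of 300 bases (250 before and 50 after the start) were found for 24 of the 31 members. On either strand, CCAAT was present for 16 of 16 sterol genes and 5 of 8 fatty acid genes, against 42.0% of the 14452 array genes with a window. The GC box GGGCGG was present for 15 of 16 and 5 of 8, against 57.3%, and the E-box CACGTG for 4 of 16 and 0 of 8, against 10.2%. The sequence TCACNCCAC was present for 1 of 16 sterol genes, Hmgcs1, and 0 of 8 fatty acid genes, against 1.46%. Matches of different motifs did not overlap in these windows. A match is a run of letters and not a shown binding site.

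Before any hour of stimulation the arms already lay apart in opposite directions between the series. At 0 h, 19 of 20 sterol genes were higher in the series with Epo, with a median log2 difference (Epo minus no Epo) of 0.49. In the fatty acid arm 9 of 11 genes were lower there, with a median of -0.28. Over all 18193 genes, 8800 were higher and the median was -0.01. Msmo1 lay at 9.56 with Epo and 8.44 without, and Tm7sf2 at 7.92 with Epo and 6.85 without. They were the 2 of 20 sterol genes that lay at least 1 higher at 0 h, where 2.4% of all genes did; no fatty acid gene reached this. The lowest member was Acaca, at 7.72 with Epo and 8.35 without.

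The induced targets of the Epo receptor matched the labels: Socs3, Cish, Pim1 and Socs2 were higher with Epo at 1 to 7 h by 3.05, 2.26, 1.94 and 1.61. Markers of other liver cells were measured too. The 13 hepatocyte markers were all higher with Epo at 0 h (median 1.46), and their mean level per array ranged from 4.81 to 10.24 with Epo and from 6.75 to 8.87 without. At 1 to 7 h, 11 of these 13 were called higher (median 1.05), and 9 of 14 erythroid markers were called lower (median -0.38). Of all genes 18.2% were called higher and 20.2% lower. The 14 erythroid markers averaged 9.73 to 10.99 per array with Epo and 9.93 to 10.95 without. Granulocyte, macrophage and megakaryocyte markers averaged 3.42 to 5.67 on the arrays with Epo, and on those without Epo they averaged 4.81 to 6.4 (granulocyte), 3.46 to 3.71 (macrophage) and 4.69 to 5.00 (megakaryocyte). Hepatocytes also make sterols and fatty acids, and the part of the hepatocyte difference in the results below was not tested. In these bulk samples, fewer cells of a type and less RNA per cell cannot be told apart.

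The question at 1 to 7 h was which synthesis genes differed between cells with and without Epo. The mean of the 7 matched log2 differences (Epo minus no Epo) was tested with limma and is given ± SE (n = 7 pairs). No slope was fitted here, so a steady change of the differences over the hours adds to the SE. A gene was called when its p, adjusted by Benjamini-Hochberg over all genes, was under 0.05. In the sterol arm 17 of 20 genes were higher with Epo and 1 was lower, with a median difference of 0.93. In the fatty acid arm 3 of 11 were higher and 1 was lower, with a median of -0.03. Among all genes 18.2% were called higher and 20.2% lower, with a median of 0.03. The difference between the arms was not tested.

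In the mevalonate steps, 4 of 6 genes were called higher. Hmgcs1, the synthase that makes HMG-CoA, had a lowest, median and highest log2 level of 8.92, 10.00 and 10.46 with Epo, against 7.76, 8.19 and 8.82 without. The groups did not overlap, and the difference was 1.59 ± 0.27 (adjusted p = 0.000767). Idi1, the isomerase of the isoprene units, lay at 10.48, 11.23 and 12.10 with Epo and at 8.96, 9.76 and 9.85 without, also with no overlap (1.81 ± 0.28, adjusted p = 0.000408). Mvd, the decarboxylase of the pathway, and Mvk, mevalonate kinase, overlapped between the groups and were higher by 1.03 ± 0.32 and 0.59 ± 0.16. Pmvk, the next kinase, and Fdps, which makes farnesyl diphosphate, were not called (0.25, adjusted p = 0.107, and 0.35, adjusted p = 0.246). Fdps was higher with Epo in 3 of 7 pairs.

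All 11 genes from squalene to cholesterol were called higher, with a median difference of 1.01. The largest difference of the list was that of Msmo1, the oxidase that removes methyl groups from sterols. Its level was 9.14, 10.87 and 11.29 with Epo (lowest, median and highest), against 7.44, 7.83 and 8.22 without, and the lowest array with Epo lay above the highest without (2.66 ± 0.33, adjusted p = 7.81e-05). Fdft1, squalene synthase, lay at 8.46, 9.86 and 10.93 with Epo and at 7.80, 8.19 and 8.46 without, where the groups just met without overlap (1.52 ± 0.22, adjusted p = 0.000234). Cyp51, the lanosterol demethylase, lay at 7.48, 8.80 and 9.18 with Epo and at 6.87, 7.12 and 7.31 without (1.41 ± 0.22, adjusted p = 0.000335). Sc5d, a sterol desaturase, was higher in 7 of 7 pairs by 1.22 ± 0.16 although its groups overlapped. Dhcr7, the reductase of the last step, Nsdhl, a sterol dehydrogenase, and Hsd17b7, a ketosterol reductase, were higher by 1.01 ± 0.28, 1.01 ± 0.21 and 0.97 ± 0.26. Smaller differences were those of Tm7sf2, a sterol reductase (0.89 ± 0.10), Lss, which closes the sterol rings (0.80 ± 0.27), Sqle, squalene epoxidase (0.73 ± 0.21), and Ebp, a sterol isomerase (0.56 ± 0.09). The size of some differences depended on the probe set. Without probe sets whose names carry the suffix _a, _s or _x, Msmo1 was higher by 1.19 and Lss by 0.40. These values come from much dimmer probe sets, with mean levels of 3.82 for Msmo1 (9.48 for the one used) and 4.91 for Lss (8.13). With the mean of its probe sets Fdft1 was higher by 0.61. All 3 were still called. The calls of Mvd, Sqle, Lss and of Stard4 below were lost when single hours were left out: without 6 h the adjusted p was 0.0693, 0.05004, 0.0971 and 0.0748, and 13 of 20 sterol genes were called higher.

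The regulators of the arm moved in both directions. Insig1, which retains the SREBPs, lay at 7.23, 8.12 and 8.33 with Epo and at 6.66, 7.27 and 7.50 without (0.67 ± 0.15, adjusted p = 0.00349). Stard4, a carrier of cholesterol, was higher by 0.44 ± 0.13 (adjusted p = 0.0237). Srebf2 was the sterol gene called lower, at 6.62, 7.13 and 7.56 with Epo against 6.99, 7.59 and 7.80 without, lower in 7 of 7 pairs (-0.40 ± 0.09, adjusted p = 0.00506). Its difference was -0.26 after quantile normalization or with the mean of probe sets, both still called, and without the time block the call was lost (adjusted p = 0.0602). Stard4 was higher by 0.80 without suffixed probe sets. The other regulator, Srebf1, was lower as well, at 8.53, 8.64 and 9.07 with Epo and at 8.96, 9.17 and 9.36 without (-0.44 ± 0.10, adjusted p = 0.00588). On the mean over 1 to 7 h both SREBP genes thus lay lower, while most sterol enzymes lay higher. At 7 h Srebf1 was 0.11 higher with Epo. A second Srebf2 probe set of similar level (7.05 against 7.26) had a mean difference of -0.12. Set against the 0 h difference, that probe set lay at 0.59 and the one used at -0.27. By that measure, described below, neither Srebf2 nor Srebf1 was called.

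In the fatty acid arm the calls lay in chain synthesis and in the supply of NADPH. Fasn, fatty acid synthase, lay at 8.07, 9.05 and 10.06 with Epo and at 6.99, 7.27 and 8.57 without, higher in 5 of 7 pairs (1.45 ± 0.35, adjusted p = 0.00643). Elovl6, an elongase of saturated chains, lay at 7.12, 7.98 and 8.84 with Epo and at 6.81, 6.95 and 7.37 without (0.97 ± 0.24, adjusted p = 0.00709). Me1, malic enzyme, which supplies NADPH, lay at 5.21, 7.37 and 8.29 with Epo and at 5.26, 5.35 and 5.65 without (1.76 ± 0.28, adjusted p = 0.000407). All Epo arrays of Me1 from 2 h on lay above every array without Epo, and the 1 h array did not. Without suffixed probe sets the difference of Me1 was 0.89 and still called, from a dimmer probe set (mean level 4.72 against 6.25). Acaca, the carboxylase that commits acetyl-CoA to fatty acids, was not called (0.54, adjusted p = 0.0697). The acetyl-CoA enzymes Acly and Acss2 had differences of -0.19 and -0.03, and of the 4 desaturases Scd1, Scd2, Fads1 and Fads2 none was called, with differences between -0.28 and 0.48.

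**Figure D1:**
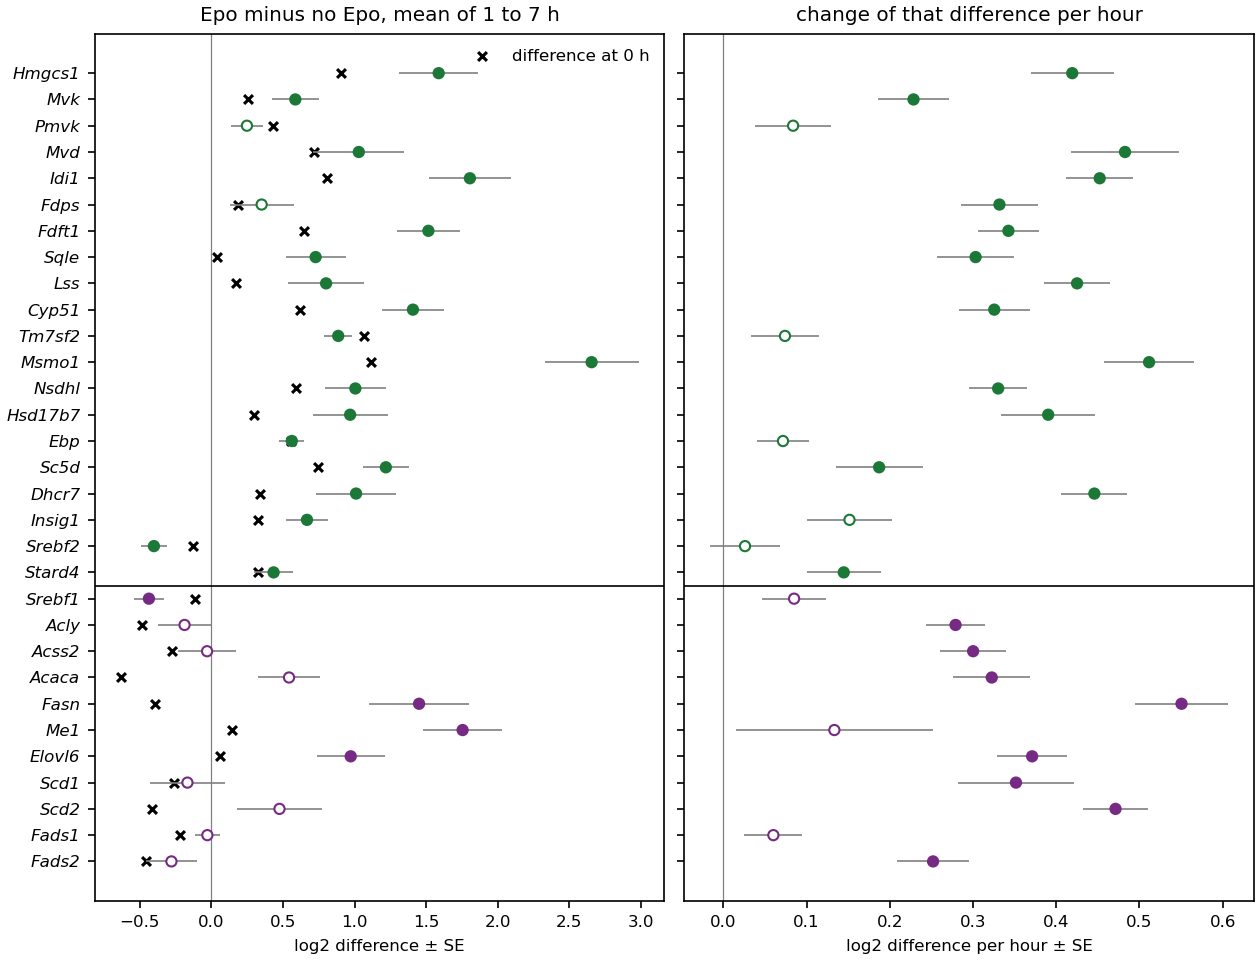
Left, the mean log2 difference between the series at 1 to 7 h (± SE over 7 pairs, Epo minus no Epo) for each of 31 genes, with a cross at the 0 h difference; right, the change of that difference per hour (± SE). Filled points passed the test, sterol genes lie above the line and fatty acid genes below it. Msmo1 lies farthest right on the left side at 2.66, and Fasn farthest right on the right side at 0.55 per hour.

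The mean over 7 h covered a strong change over the hours. Neither arm's median moved up at first: at 1 and 2 h the median matched difference was 0.26 and 0.11 in the sterol arm and -0.45 and -0.67 in the fatty acid arm. From 3 to 7 h it was 0.68, 0.83, 1.29, 1.57 and 1.72 in the sterol arm and -0.25, 0.15, 0.18, 0.69 and 1.46 in the fatty acid arm. The sterol median was the higher at every hour from 0 to 7 h, and so also before any hour of stimulation. Sterol genes at least 1 higher with Epo numbered 1 of 20 at 2 h (3.41% of all genes), 7 at 4 h (3.16%) and 15 at 7 h (4.51%). In the fatty acid arm these counts were 1, 3 and 6 of 11. By 7 h all 11 fatty acid genes and 19 of 20 sterol genes were higher with Epo, and the exception was Srebf2. On the mean over 1 to 7 h, 9833 of all 18193 genes lay above 0. The smallest differences above 0 at 7 h were those of Srebf1 (0.11) and Fads1 (0.22).

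**Figure D2:**
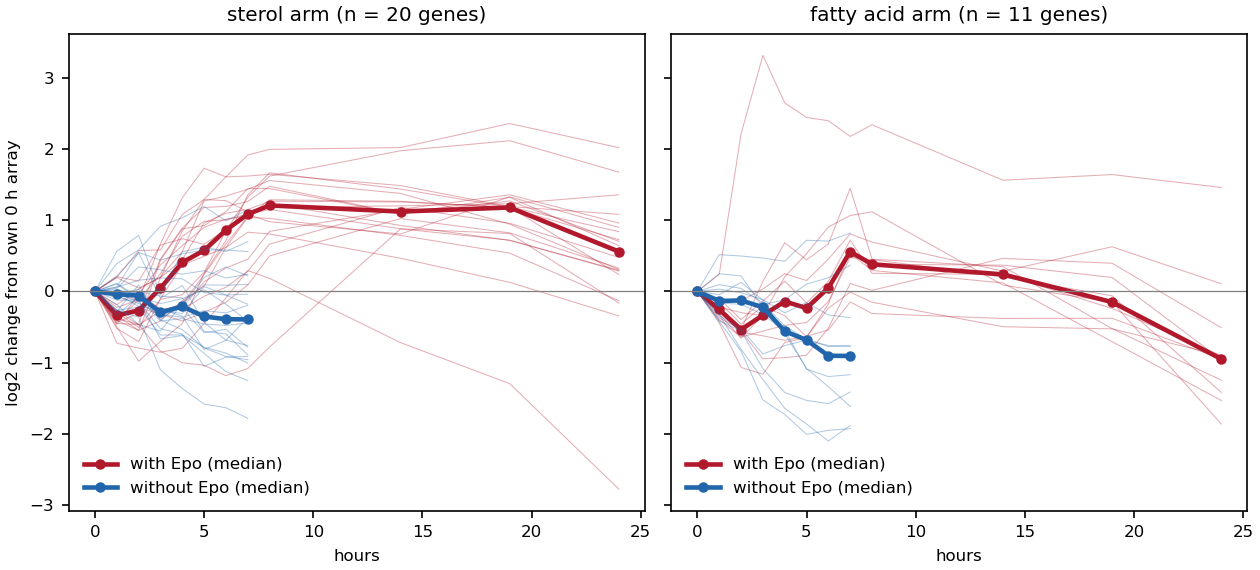
Log2 change from the own 0 h array by hour, with thin lines for genes and thick lines for the median of the sterol arm (20 genes) and the fatty acid arm (11 genes), with Epo and without. With Epo the sterol median lies at 1.09 at 7 h and the fatty acid median at 0.56; without Epo they lie at -0.39 and -0.91.

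Measured from its own 0 h array, each series showed which side moved. With Epo the sterol median lay at -0.34 and -0.27 at 1 and 2 h, passed 0 at 3 h (0.05) and lay at 0.41, 0.58, 0.86, 1.09 and 1.21 at 4 to 8 h. The fatty acid median with Epo stayed below 0 to 5 h, with a lowest value of -0.54 at 2 h, and lay at 0.05, 0.56 and 0.38 at 6, 7 and 8 h. At 2 h with Epo, 16 of 20 sterol and 10 of 11 fatty acid genes lay below their own 0 h level, as did 9129 of all 18193 genes. Without Epo the sterol median lay at -0.39 and the fatty acid median at -0.91 at 7 h. At 7 h the median shift from 0 h was thus the larger one without Epo in the fatty acid arm and the larger one with Epo in the sterol arm.

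**Figure D3:**
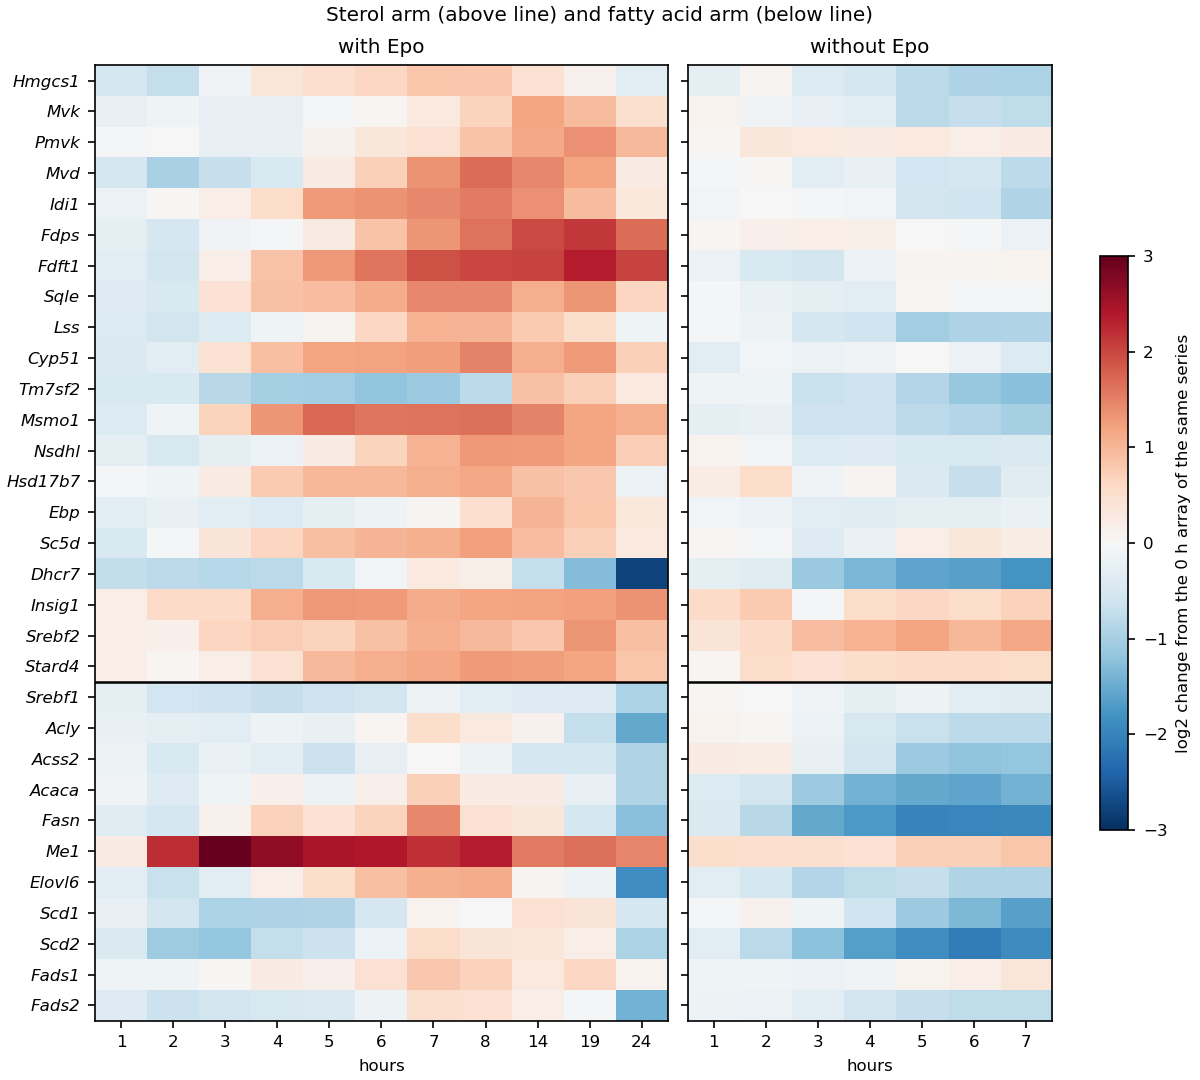
Log2 change from the own 0 h array for 31 genes (rows) by hour (columns), with Epo at 1 to 24 h on the left and without Epo at 1 to 7 h on the right, with a line between the sterol arm and the fatty acid arm. With Epo, 16 of 20 sterol genes are below 0 (blue) at 2 h, 11 are above 0 (red) at 4 h and 19 at 7 h, and Me1 is red from 2 h.

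Because the series differed at 0 h, the mean matched difference was also set against the 0 h difference, with a linear drift of the differences allowed. By this measure 3 of 20 sterol genes and 4 of 11 fatty acid genes were higher and none was lower, with 1.34% of all genes called higher and 2.39% lower. The medians were 0.45 in the sterol arm, 0.30 in the fatty acid arm and 0.01 over all genes. The called genes were Msmo1 (1.54 ± 0.31, adjusted p = 0.0154), Idi1 (0.99 ± 0.23, adjusted p = 0.0264), Fdft1 (0.87 ± 0.21, adjusted p = 0.0319), Fasn (1.84 ± 0.31, adjusted p = 0.00673), Acaca (1.17 ± 0.26, adjusted p = 0.0239), Elovl6 (0.92 ± 0.24, adjusted p = 0.0463) and Scd2, a desaturase (0.89 ± 0.22, adjusted p = 0.0404). Me1 had a value of 1.61 and was not called (adjusted p = 0.212). Without the drift term no member was called, and 0.066% of all genes were (12 genes, 1446 at an unadjusted p under 0.05). The change of the differences over the hours then counts as scatter: the value of Fasn was the same, with an SE of 0.99. These values rest on 1 pair of 0 h arrays. With the drift term kept, the call of Fasn held under each alternative tried, and each of the other 6 calls was lost under at least 1 of them; without 6 h the sterol arm had 0 calls and the fatty acid arm 1.

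The cell type markers were measured in the same comparisons. From their own 0 h arrays 0 of 13 hepatocyte markers were called, with a median of -0.33. Of the 10 granulocyte markers, 2 were called higher and 0 lower from their own 0 h arrays, with a median of 0.85 and a range of 0.18 to 1.35. All 10 were lower with Epo at 0 h (median -0.77), and the slope of their matched differences was called upward for 3 of 10 (median 0.07 per hour). Of the erythroid markers, 2 of 14 were called lower from their own 0 h arrays (median -0.40), and 0 of 11 macrophage and 0 of 5 megakaryocyte markers were called. The slope of the matched differences of the hepatocyte markers over 1 to 7 h had a median of 0.02 per hour, with 0 of 13 called. Their levels fell in both series, with 13 of 13 called over 0 to 7 h and medians of -0.31 per hour with Epo and -0.29 without. The part of these marker differences in the members' values was not tested.

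How the gap between the series changed per hour was measured by a slope fitted to the 7 matched differences. It was called upward for 15 of 20 sterol genes and 8 of 11 fatty acid genes and downward for none, with 7.25% of all genes called upward and 7.97% downward. The median slope was 0.33 per hour in the sterol arm and 0.30 in the fatty acid arm, against 0.00 over all genes. Fasn had the steepest slope (0.55 ± 0.06 per hour, adjusted p = 2.96e-05). Its differences at 0 to 7 h were -0.39, -0.34, -0.09, 1.28, 2.02, 2.06, 2.23 and 2.99, below 0 up to 2 h and above 1 from 3 h on. Msmo1 followed (0.51 ± 0.05, adjusted p = 4.04e-05), with differences of 1.11, 0.97, 1.21, 2.40, 3.04, 3.63, 3.59 and 3.74. Scd2 was not called on the mean but widened by 0.47 ± 0.04 per hour (adjusted p = 9.56e-06), from below 0 at 3 h (-0.34) to 2.03 at 7 h. Without suffixed probe sets the slope of Msmo1 was 0.19 and still called, and that of Lss was 0.083 and not called (0.42 otherwise). The calls of Sc5d and Stard4 were lost when single hours were left out, with adjusted p of 0.264 for Sc5d without 1 h and 0.168 for Stard4 without 7 h, and that of Scd1 was lost without 7 h (adjusted p = 0.0522).

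Genes that were not called on the mean but crossed from below 0 to above 0 were mostly in the fatty acid arm. Scd1, the other stearoyl desaturase, had a difference of -1.09 at 3 h and 1.46 at 7 h. Acly, ATP citrate lyase, had -0.83 at 2 h and 0.82 at 7 h, and Acss2, acetyl-CoA synthetase, had -0.95 and 0.89. Fads2, a desaturase of polyunsaturated chains, had -0.92 and 0.78. The slope was called for each of the 4 (0.35, 0.28, 0.30 and 0.25 per hour). Fdps of the sterol arm had the same form, with -0.48 at 2 h and 1.69 at 7 h (0.33 ± 0.05 per hour, adjusted p = 0.000261; 0.15 and still called with the mean of its probe sets). Sterol genes that were called on the mean crossed as well. Among them were Mvd (-0.30 at 2 h and 2.86 at 7 h), Lss (-0.23 and 2.12) and Sqle (-0.21 and 1.53). The slope was not called for Pmvk, Tm7sf2, Ebp, Insig1, Srebf2, Srebf1, Me1 and Fads1. Of these, Tm7sf2 and Ebp kept differences of 0.69 to 1.24 and 0.30 to 0.84 at 1 to 7 h, close to their 0 h differences of 1.07 and 0.55. Me1 instead had its largest difference at 3 h, 2.99, and 1.50 at 7 h.

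**Figure D4:**
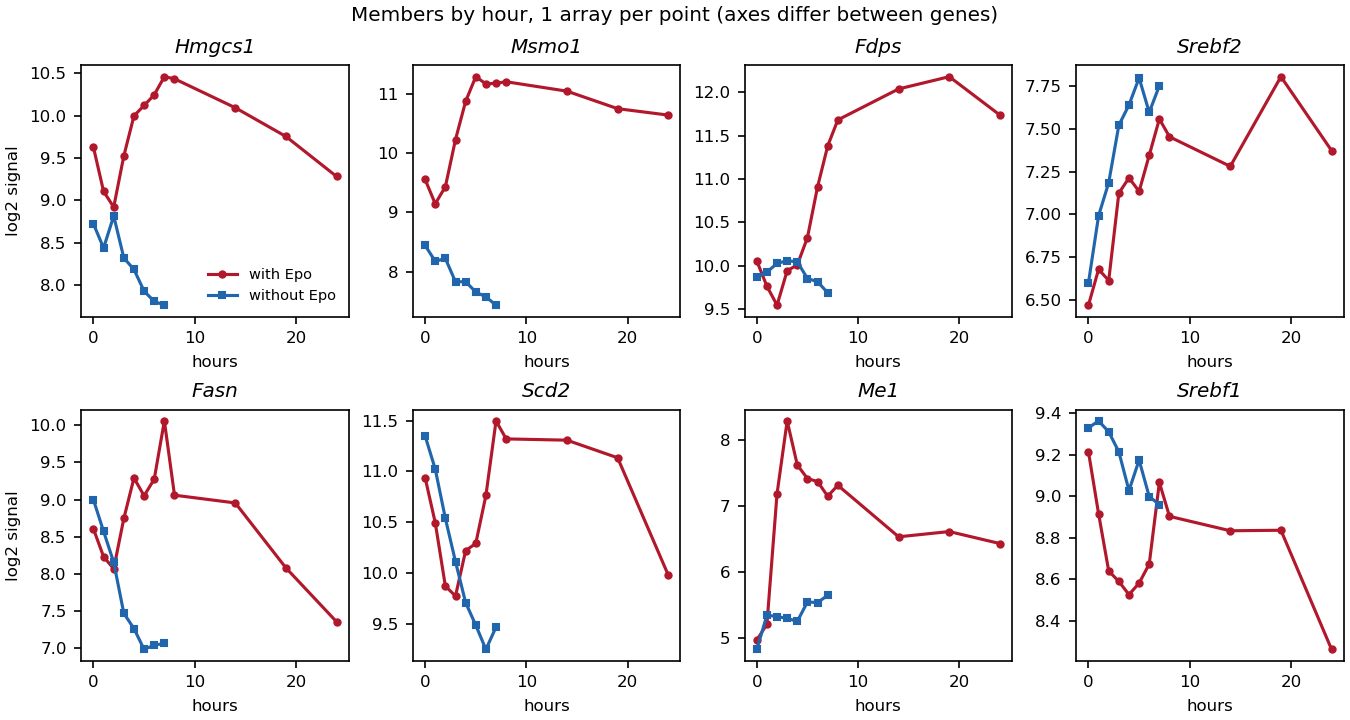
Log2 level by hour for Hmgcs1, Msmo1, Fdps, Srebf2, Fasn, Scd2, Me1 and Srebf1, with Epo (0 to 24 h) and without Epo (0 to 7 h), 1 array per point. Msmo1 with Epo reaches 11.29 at 5 h while it lies at 7.66 without Epo, and Me1 with Epo reaches 8.29 at 3 h.

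The change over time was tested within each series over 0 to 7 h. With Epo, the hour is also the length of exposure to Epo. With Epo, 15 of 20 sterol genes rose and 1 fell, and 3 of 11 fatty acid genes rose, with 2.21% of all genes called as rising and 5.88% as falling. Without Epo, 2 of 20 sterol genes rose and 10 fell, and 1 of 11 fatty acid genes rose and 9 fell, with 13.3% of all genes called as rising and 15.4% as falling. With Epo, Fdft1 (0.35 ± 0.04 per hour), Msmo1 (0.33 ± 0.04), Sqle (0.27 ± 0.04) and Cyp51 (0.26 ± 0.04) were among the sterol genes that rose, and in the fatty acid arm Fasn (0.22 ± 0.04), Elovl6 (0.21 ± 0.04) and Fads1 (0.12 ± 0.03) rose. Tm7sf2 fell with Epo (-0.16 ± 0.03 per hour). Without Epo the steepest falls were those of Scd2 (-0.31), Fasn (-0.30), Dhcr7 (-0.28) and Scd1 (-0.26). Acss2 and Acaca fell by 0.23 per hour, and Tm7sf2 by 0.19. Srebf2 rose by 0.15 per hour with Epo and by 0.15 without, and Stard4 rose by 0.19 with Epo and by 0.08 without. Me1 rose by 0.09 without Epo. The calls of Me1 and Stard4 without Epo were lost without the 0 h array (adjusted p = 0.171 and 0.147). With Epo, the call of Fads1 was lost without the 7 h array (0.0929 adjusted). Sterol genes called as rising with Epo then numbered 11 of 20. The calls lost were those of Mvd, Fdps, Lss and Nsdhl (adjusted p = 0.268, 0.0569, 0.187 and 0.133). Without suffixed probe sets, Msmo1 had a slope of 0.017 without Epo and Lss of -0.0049 with Epo, neither of them called.

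The last arrays asked whether the levels at 14, 19 and 24 h differed from those at 1 to 8 h with Epo. The arrays without Epo end at 7 h. In the sterol arm 6 of 20 genes were higher and 1 was lower (median log2 difference 0.35), and in the fatty acid arm 0 of 11 were called in either direction (median -0.36); of all genes 17.6% were higher and 18.5% lower, with a median of 0.08. Fdps lay at 12.04, 12.18 and 11.74 at 14, 19 and 24 h, against 9.55, 10.17 and 11.68 at 1 to 8 h (lowest, median and highest), with no overlap (1.54 ± 0.37, adjusted p = 0.00525). Tm7sf2 lay at 8.80, 8.64 and 8.21, against 6.73, 7.00 and 7.47 (1.49 ± 0.18, adjusted p = 4.72e-05). Fdft1, Pmvk, Ebp and Mvk were higher by 1.26 ± 0.47, 1.01 ± 0.21, 0.87 ± 0.19 and 0.86 ± 0.20. The call of Fdft1 was lost under most settings, for example without 19 h (adjusted p = 0.144). Dhcr7 was lower, at 7.77, 7.19 and 5.71 against 7.63, 7.90 and 8.78 at 1 to 8 h (-1.19 ± 0.36, adjusted p = 0.017), and without the 24 h array its difference was -0.60 and not called.

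The late fatty acid genes had values of -0.96 for Elovl6 (adjusted p = 0.093), -0.84 for Fasn (0.0845 adjusted) and 0.61 for Scd1 (0.0747 adjusted), none of them called. Set against the last 3 hourly arrays, 6 to 8 h, the sterol median was -0.18 with 2 genes called higher, Fdps (0.66) and Tm7sf2. Fasn, Me1 and Elovl6 were then called lower, by 1.33, 0.75 and 1.67. In this contrast 1045 of all 18193 genes were called higher and 1851 lower. From the own 0 h array the sterol median was 1.12, 1.18 and 0.56 at 14, 19 and 24 h, and the fatty acid median was 0.24, -0.15 and -0.95. At 24 h, 16 of 20 sterol genes and 2 of 11 fatty acid genes lay above their 0 h level. These counts were not set against all genes. The spread of log2 levels within an array was 2.45, 2.44 and 2.32 (SD) at 14, 19 and 24 h, against 2.49 to 2.59 at 0 to 8 h. Hepatocyte markers fell over the same contrast, with 12 of 13 lower and a median of -3.07, and 10 of 14 erythroid markers were higher (median 0.51). The part of these shifts in the late values was not tested.

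**Figure D5:**
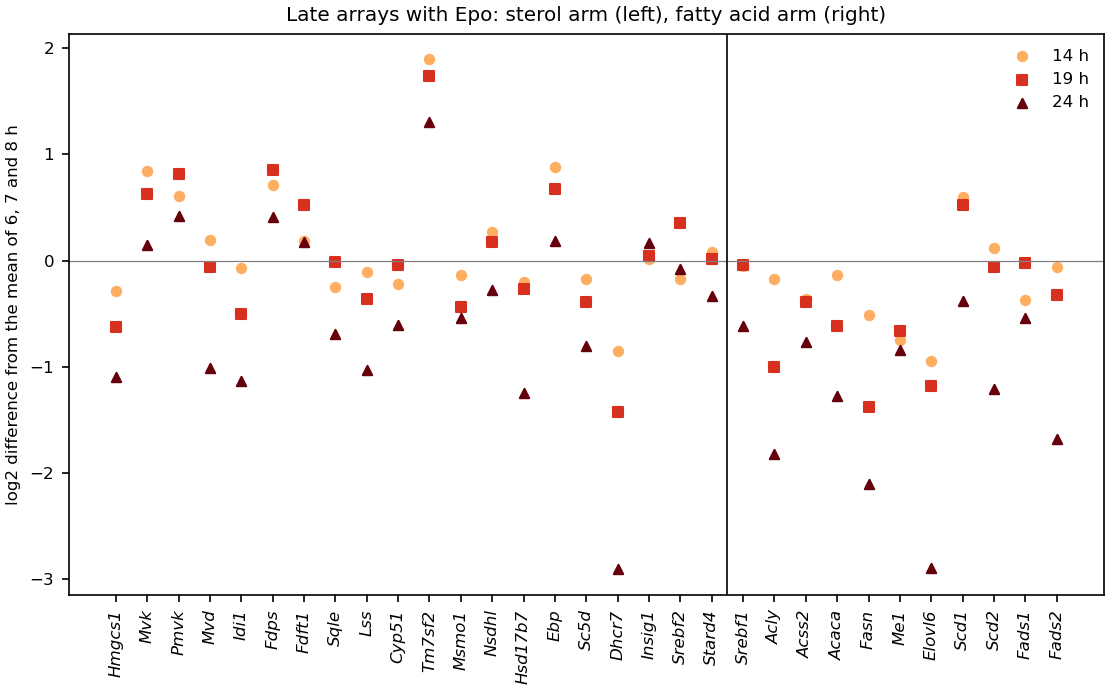
Log2 difference of the 14, 19 and 24 h arrays from the mean of the 6, 7 and 8 h arrays with Epo, a point per array and gene. Tm7sf2 and Fdps lie above 0 at all 3 times, and Elovl6 and Fasn lie below 0 at all 3.

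The hour of the highest level with Epo spread over the whole course. These hours were read from single arrays, and some margins were small. Sqle lay at 10.620 at 7 h and 10.621 at 8 h, and Lss at 9.32 and 9.31. In the sterol arm Msmo1 was highest at 5 h, Hmgcs1, Lss and Dhcr7 at 7 h, and 8 genes at 8 h. Mvk, Tm7sf2 and Ebp were highest at 14 h, Pmvk, Fdps, Fdft1 and Srebf2 at 19 h, and Insig1 at 24 h. In the fatty acid arm Srebf1 and Acss2 were highest at 0 h, Me1 at 3 h, 6 genes at 7 h, Elovl6 at 8 h and Scd1 at 14 h.

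Genes near these pathways gave mixed results in the same comparisons. Of 12 other SREBP pathway genes measured, 5 were higher and 4 lower with Epo at 1 to 7 h (median 0.18). Among all genes 18.2% were called higher and 20.2% lower in that comparison. Acsl3, which activates long-chain fatty acids, was higher by 1.41 ± 0.28, Insig2, a relative of Insig1, by 1.00 ± 0.10, and Elovl5, an elongase of polyunsaturated chains, was lower by 0.84 (-0.84 ± 0.11). Late, 6 of the 12 were lower and none higher, where 18.5% of all genes were lower and 17.6% higher. Those lower included Gpam, an acyltransferase of glycerolipid synthesis (-1.41), Scap, the escort of the SREBPs (-1.26), and Mbtps2, a protease that cuts them (-1.04). Of 9 genes of sterol efflux and transport, 2 were higher and 4 lower with Epo at 1 to 7 h (median -0.07). Mylip, a target of the sterol-sensing LXR receptors, differed by -1.06, the exporter Abcg1 by -0.85 and the lysosomal carrier Npc1 by -0.73. Of 11 genes of fatty acid oxidation, 1 was higher and 6 lower (median -0.28). Cpt1a, which admits fatty acids to mitochondria, was the lowest of them at -1.56 ± 0.28, and its difference widened downward by 0.42 per hour (-0.42 ± 0.06). From their own 0 h arrays, Cpt1a (-1.38 ± 0.32, adjusted p = 0.027) and Npc1 (-1.02 ± 0.24, adjusted p = 0.0329) were called lower, and Elovl1, an elongase (0.84 ± 0.22, adjusted p = 0.049), was called higher.

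Several probe sets measured 22 of the 31 genes. For members called at 1 to 7 h, 24 of 26 other probe sets lay in the same direction as the one used. The exceptions were 2 dim probe sets of Fdft1, with mean differences of -0.10 and -0.09 and mean levels of 4.75 and 4.73.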

How the data were processed

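RNA from 20 samples of fetal liver CFU-E cells was measured on 1-colour expression arrays. The values deposited by the authors run between 1.37 and 14.56, which is a log2 scale. The normalization behind them was not given in the sources used here. The table held 45101 probe sets: 34945 named 1 gene, 932 several and 9160 none, and 64 were controls. Reference names came from GRCm38.p6 and changed 0 symbols. Arrays have no depth, and their number limits the precision.

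Linear models were fitted with limma 3.58.1 in R 4.3.3 (empirical Bayes with trend) over 18193 genes, tested on simulated data first. P-values were adjusted by Benjamini-Hochberg over all genes. The Epo effect used the 7 matched hours with time as a block. Alternatives were other normalizations, probe set choices, variance models, hours left out and other uses of the 0 h and early arrays. Replicates were hours of a series, since each treatment and time had 1 array. Tables used pandas 2.3.3 and numpy 2.4.6 in Python 3.11.15, and plots used matplotlib 3.10.9.

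The members and gene lists were chosen with earlier results of these data known. By rule the text names called members and those against their arm, and at most 3 called genes of each other list.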

Additional observations from a re-analysis of the deposited data

Results flagged for a closer look

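The difference between cells with and without Epo changed over the hours for 23 of the 31 genes, as tested by the slope of the matched differences at 1 to 7 h (limma, adjusted over all genes). In the sterol arm the slope per hour was 0.51 for Msmo1, 0.48 for Mvd, 0.45 for Idi1, 0.45 for Dhcr7, 0.42 for Lss, 0.42 for Hmgcs1, 0.39 for Hsd17b7, 0.34 for Fdft1, 0.33 for Fdps, 0.33 for Nsdhl, 0.33 for Cyp51, 0.30 for Sqle, 0.23 for Mvk, 0.19 for Sc5d and 0.14 for Stard4. In the fatty acid arm it was 0.55 for Fasn, 0.47 for Scd2, 0.37 for Elovl6, 0.35 for Scd1, 0.32 for Acaca, 0.30 for Acss2, 0.28 for Acly and 0.25 for Fads2.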

How the results depend on the processing

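Of the gene-level values recomputed under the alternatives, 3175 kept their side of the threshold, 108 lost the call, 49 gained it and 2 called ones turned direction. Values called neither in the main fit nor under the alternative were not checked for direction, and some of the 3175 may have turned. The cause was not tested unless stated. At 1 to 7 h, 0 sterol genes were called lower without the time block, and 0 fatty acid genes without suffixed probe sets, which leave fewer genes. Leaving out single hours gave 1 to 2 fatty acid genes called lower. The fatty acid median was 0.086 after quantile normalization, 0.19 with the mean of probe sets, 0.22 without suffixed probe sets, and -0.069 (without 7 h) to 0.12 (without 2 h, 0.078 without 1 h and 0.0079 without 3 h) when hours were left out.

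Against the own 0 h arrays with drift, 414 genes were called with the mean of probe sets and 327 without a variance trend, against 678, and 173 (without 6 h) to 2007 (without 1 h) when hours were left out. Sterol genes called higher numbered 1 with the mean of probe sets and 1 without a variance trend, and 0 (without 6 h) to 8 (without 1 h) over hours. Fatty acid genes numbered 1 and 2 under the same settings, and 1 (without 6 h) to 5 (without 1 h) over hours. Without drift the 12 calls became 3 after quantile normalization, 2 with brighter genes and 3 without a variance trend, and 3 to 237 (without 1 h) over hours.

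The count of changing differences was 1736 (without 6 h) to 2693 over hours, against 2769. For time without Epo, 1 sterol gene rose without suffixed probe sets, 1 from 1 to 7 h only, and 1 to 2 over hours; fatty acid genes that rose numbered 2 after quantile normalization, 2 with brighter genes, 0 with the mean of probe sets, 0 without suffixed probe sets and 0 to 1 over hours. Msmo1 turned to 0.017 per hour there without suffixed probe sets, and Lss to -0.0049 with Epo. Time with Epo gave 915 (without 6 h) to 1444 calls over hours, against 1472. Sterol genes that rose there numbered 11 (without 7 h) to 16 (without 0 h) over hours, against 15.

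The late comparison gave 2896 calls against 6 to 8 h and 4232 (without 24 h) to 7255 (without 14 h) over hours, against 6579. Against 6 to 8 h, 2 sterol genes were higher, the sterol median was -0.18, and 3 fatty acid genes were lower. Of all 18193 genes, 1045 were then higher and 1851 lower. Sterol genes called lower numbered 0 (without 24 h) to 1 over hours. Fatty acid genes called higher numbered 1 after quantile normalization and 0 to 1 over hours; those called lower numbered 1 with brighter genes, 2 with the mean of probe sets, 1 without suffixed probe sets, and 0 to 4 (without 14 h) over hours. The Epo effect was paired by hour, and without the time block 3157 genes were called higher and 3457 lower, against 3312 and 3669. The labels number no replicates, so no block other than the hour was used. The number of arrays limits what can be detected.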
